A study of Mus musculus with 2 samples.

Results

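Genes of the glutamate receptors and of the postsynaptic density were examined in the white matter of mice that lack CD47. The set held 35 genes chosen by their known role: subunits of the AMPA, kainate, NMDA and delta receptors, the metabotropic receptors, and the scaffold, adhesion and calcium signalling proteins that sit beneath them. The choice was made with earlier results of these data known. Of the 35 genes, 33 were found by gene symbol on the array, out of 18193 genes in all. The other 2, Grin1 and Shank2, were not analysed here. A probe set is a group of oligonucleotides that reads 1 stretch of a transcript, and its MAS5 signal is a brightness on a linear scale. Each gene is represented by the brightest of its probe sets. It was counted as measured where that signal passed 106, the median of the 2 arrays together and called the floor below, on 1 array or both. By this rule 26 of the 33 genes were measured, as were 12473 genes of the whole array.

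Total RNA of the optic nerve and tract was taken from male CD47 null mice (CD47 KO) aged 12 to 15 weeks and from male wild-type mice (WT) aged 13 to 15 weeks. Each genotype was 1 pool of several animals on 1 array. The pool held 4 CD47 KO and 5 WT animals by the series text, and 5 CD47 KO and 4 WT animals by the labelling protocol. The labels name the whole tissue, with no sorting of cells and no drug treatment. With 1 array for each genotype, no test was possible and no ratio below has an error between mice.

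Glutamate is the main excitatory transmitter of the brain. AMPA and kainate receptors pass fast currents, NMDA receptors let in calcium when glutamate arrives at a depolarised membrane, and metabotropic receptors act through G proteins. At excitatory synapses these receptors are held in the postsynaptic density by scaffold proteins of the MAGUK, Shank and Homer families, together with the calcium/calmodulin-dependent kinase CaMKII. The optic nerve and tract carry axons and hold few synapses, but oligodendrocyte precursors and astrocytes are also known to express several of these genes.

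The labels and the tissue were checked first. Cd47 was lower in CD47 KO, with signals of 1346 in CD47 KO and 3928 in WT for its brightest probe set (log2 ratio -1.54). The other 2 probe sets of Cd47 above the floor on both arrays were at 39.5% and 38.9% of WT; where they lie relative to the deletion was not examined. All 11 measured markers of mature oligodendrocytes and all 11 of astrocytes were above the floor in both arrays, as were all 15 markers of neurons in general. Summed over the list, the neuronal markers had a signal of 18828 in CD47 KO and 27267 in WT. In CD47 KO 14 of the 15 were lower (53.2% over all measured genes). Both pools thus held neuronal RNA, and the summed signal of the list in CD47 KO was 69.1% of that in WT.

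Most of the measured receptor and postsynaptic genes were lower in CD47 KO white matter, and 1 of them by over 2-fold. On the log2 scale, the ratio of the CD47 KO signal to the WT signal was below 0 for 20 of the 26 genes and above 0 for 6. Over all 12473 measured genes 53.2% were below 0. The median log2 ratio was -0.43 over the 26 genes and -0.02 over all genes. Grin2b and Grin2d passed the floor in WT alone, which fixed their direction, and without them 18 of 24 genes were below 0 with a median of -0.41. In bulk tissue, fewer cells of a type and less RNA per cell cannot be told apart.

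A difference of over 2-fold was found in 1 gene, Camk2a, which was lower, against a background of 0.818% of all genes over 2-fold lower. None of the 26 was over 2-fold higher, as 1.21% of all genes were. At a smaller threshold of 1.5-fold, which was chosen after the values had been seen, 7 of the 26 genes were lower (background 4.68%) and 0 were higher (background 4.02%). The 7 genes were Camk2a, Camk2b, Grm7, Dlg4, Homer2, Grin3a and Grin2d. Without Grin2d, whose CD47 KO signal was under the floor, 6 of 24 genes were over 1.5-fold lower. The 7 are 2 kinase subunits, a metabotropic receptor, 2 scaffolds and 2 NMDA receptor subunits.

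**Figure D1:**
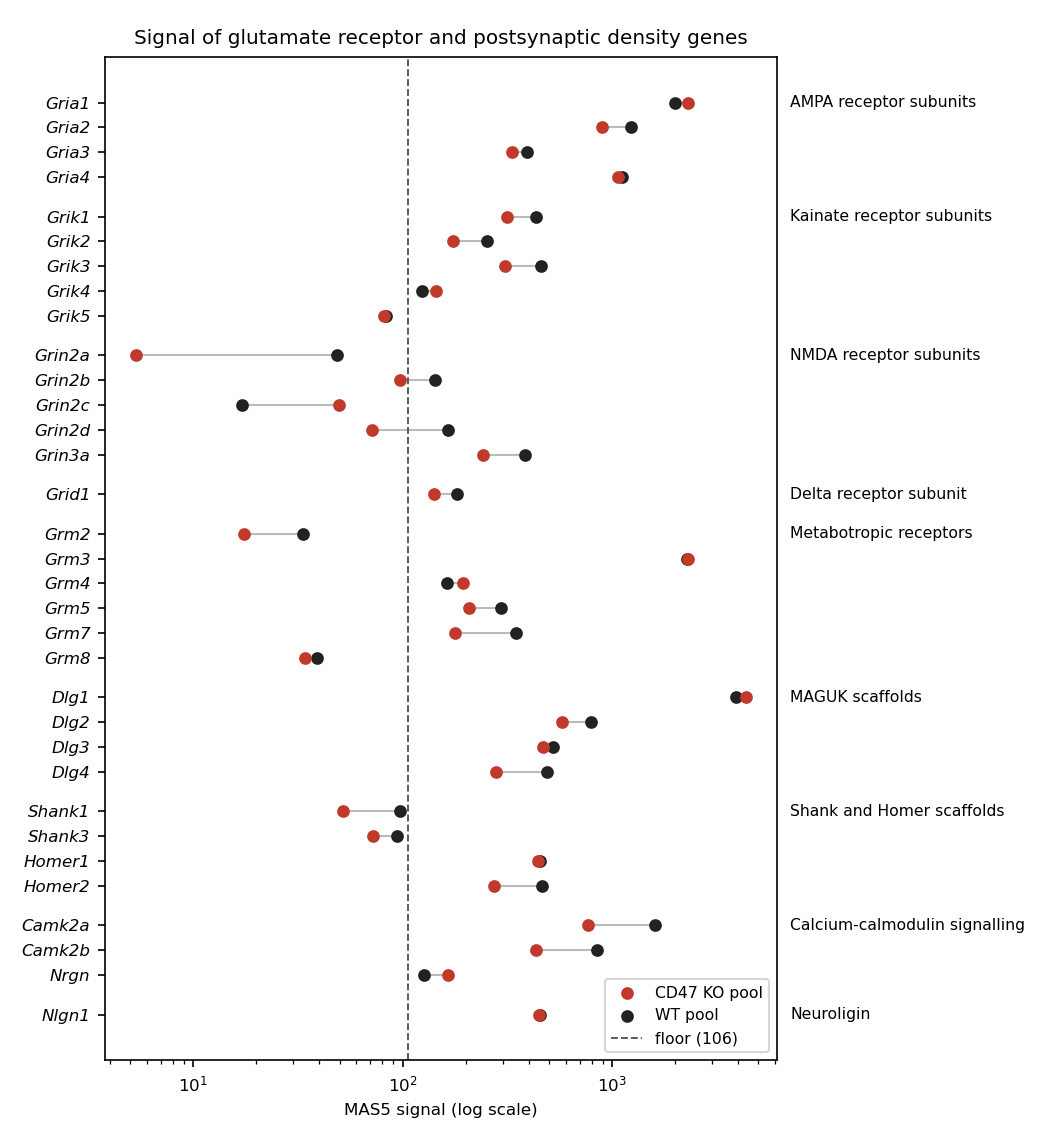
MAS5 signal (horizontal, log scale) of the 33 genes in the CD47 KO pool (red) and the WT pool (black), 1 array each, grouped by role, with the floor at 106 as a dashed line. Both points lie left of the floor for 7 genes, and for 20 of the other 26 the red point lies to the left of the black one.

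The 4 AMPA receptor subunits form the channels that carry most fast excitatory current, and all were above the floor in both arrays. Gria2, whose subunit keeps calcium out of the channel, had a signal of 895 in CD47 KO and 1235 in WT (1.38-fold lower, log2 ratio -0.46). Gria3 had 334 in CD47 KO and 393 in WT, a log2 ratio of -0.24. The remaining 2 subunits were close to equal or higher. Gria4, expressed by oligodendrocyte precursors as well as neurons, had 1072 in CD47 KO and 1117 in WT (log2 ratio -0.06). Gria1 had 2316 in CD47 KO and 1999 in WT and was thus 1.16-fold higher. The AMPA subunits therefore did not share 1 direction, with log2 ratios from -0.46 to 0.21.

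Of the 5 kainate receptor subunits, 4 were measured and 3 of these were lower. Grik3 had a signal of 308 in CD47 KO and 459.7 in WT, 1.49-fold lower. Grik2 had 173 in CD47 KO and 254 in WT, 1.47-fold lower, and Grik1 had 316 in CD47 KO and 432 in WT, 1.37-fold lower. These 3 belong to the subunits that can form channels by themselves. Grik4 and Grik5 encode the high-affinity subunits, which need one of the others to form a channel. Grik4 was 1.17-fold higher, with signals of 144 in CD47 KO and 123 in WT, both close to the floor. Grik5 was under the floor in both, at 81.7 in CD47 KO and 83.4 in WT.

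Grin1 was not found by gene symbol on the array and was not analysed. Of the other NMDA receptor subunits, only Grin3a was above the floor on both arrays. Grin2b and Grin2d passed it in WT alone, so that the floor set their direction and their ratios are bounds. Grin3a, which encodes a subunit that lowers the calcium permeability of the receptor, had a signal of 241 in CD47 KO and 383 in WT (1.59-fold lower, log2 ratio -0.67). Grin2d, one of the modulatory GluN2 subunits, had 71.3 in CD47 KO and 165 in WT and was at least 1.55-fold lower. Grin2b, another GluN2 subunit and abundant in the forebrain, had 96.8 in CD47 KO and 142 in WT and was at least 1.33-fold lower. The log2 ratio of Grin2d depends on the floor: it was -0.63 here and -1.21 with the floor at the 40th percentile. Grin2a and Grin2c were under the floor in both arrays, at 5.3 and 49.9 in CD47 KO and at 48.8 and 17 in WT. The delta receptor gene Grid1, whose protein binds cerebellin at synapses rather than acting as a classical glutamate-gated channel, had 141 in CD47 KO and 182 in WT (1.29-fold lower).

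The metabotropic receptors went both ways. Grm7, a receptor that sits in the presynaptic terminal and reduces transmitter release, had a signal of 178 in CD47 KO and 349 in WT (1.96-fold lower, log2 ratio -0.97), and only 0.978% of all measured genes had a lower ratio. Grm5, which acts through Gq and is found in neurons and astrocytes, had 207 in CD47 KO and 296 in WT (1.43-fold lower). In contrast with these 2 genes, 2 others were equal or higher. Grm3, a receptor of astrocytes as well as neurons, had 2296 in CD47 KO and 2268 in WT, a log2 ratio of 0.02. Grm4, another presynaptic receptor, had 195 in CD47 KO and 162 in WT (1.21-fold higher). Grm2 and Grm8 were under the floor in both arrays, with signals of 17.5 and 34.3 in CD47 KO and 33.3 and 39 in WT.

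Among the scaffolds, Dlg4 and Homer2 were over 1.5-fold lower and Dlg1, Dlg3 and Homer1 were close to equal. The MAGUK gene Dlg4 encodes PSD-95, the central scaffold of excitatory synapses. Its signal was 279 in CD47 KO and 489 in WT, 1.75-fold lower, and 1.79% of all measured genes had a lower ratio. Dlg2, which encodes PSD-93, had 579.6 in CD47 KO and 791 in WT (1.36-fold lower). Dlg3, which encodes SAP102, had 469 in CD47 KO and 525 in WT (1.12-fold lower), and Dlg1, which encodes SAP97 and is also expressed outside neurons, had 4382 in CD47 KO and 3922 in WT (1.12-fold higher). The 4 MAGUK genes were thus spread over log2 ratios from -0.81 to 0.16. The Homer proteins link group I metabotropic receptors to calcium stores. Homer2 had a signal of 274 in CD47 KO and 463 in WT (1.69-fold lower), whereas Homer1 had 444 in CD47 KO and 455 in WT, a log2 ratio of -0.04 that came to 0.00, just above equality, when each array was centred on its median. The Shank proteins form the deeper layer of the density, and Shank1 (51.6 in CD47 KO and 97.4 in WT) and Shank3 (72.3 in CD47 KO and 94.1 in WT) were under the floor in both arrays, just outside the rule. The genes just inside it were Grin2b and Grik4. Nlgn1, a postsynaptic adhesion protein that binds neurexins, had 448 in CD47 KO and 453 in WT, a log2 ratio of -0.01 that turned to 0.02 when each array was centred on its median and to 0.01 by loess.

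The 2 CaMKII genes of the set, which encode subunits of the kinase that decodes calcium entry at synapses, had the lowest log2 ratios of the set together with Grm7. Camk2a encodes the α subunit, known from excitatory forebrain neurons. Its signal was 768 in CD47 KO and 1611 in WT, 2.10-fold lower (log2 ratio -1.07), and 0.489% of all measured genes had a lower ratio. Camk2b, which encodes the β subunit, had 432 in CD47 KO and 848 in WT (1.96-fold lower, log2 ratio -0.97). The pair was close in size of difference. Nrgn encodes neurogranin, a small postsynaptic protein that binds calmodulin when calcium is low. It had 164 in CD47 KO and 126 in WT and was 1.29-fold higher, the highest ratio among the 26 genes, with both signals close to the floor. When the median of all its probe sets above the floor was taken, the log2 ratio of Camk2a was -0.77, short of 2-fold.

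**Figure D2:**
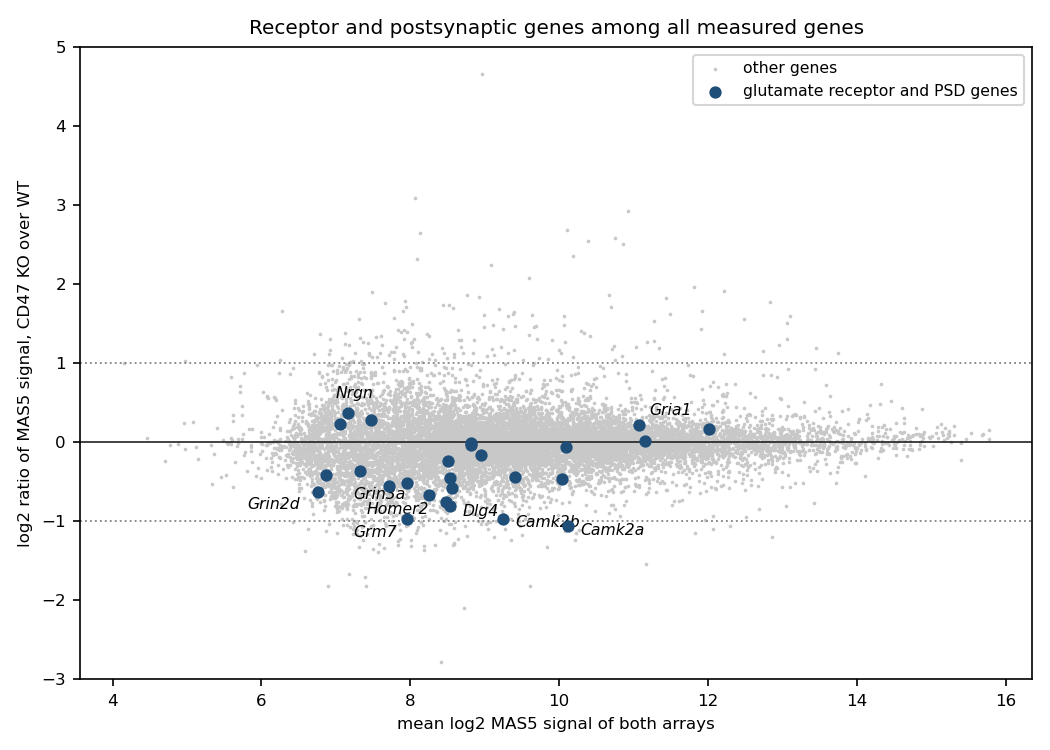
Log2 ratio of CD47 KO over WT (vertical) against the mean log2 MAS5 signal of both arrays (horizontal) for the 12473 measured genes (grey) and the 26 receptor and postsynaptic genes (blue), with 2-fold differences as dotted lines and values under the floor set to it in the ratio. Camk2a is the only blue point below the lower dotted line, and no blue point reaches the upper one.

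The promoters of 3 of these genes are given. They were taken from the genes above the floor in both arrays that have a single window in the promoter table. Among those, Camk2b and Grik3 had the lowest log2 ratios and Nrgn the highest. In the whole set several genes, such as Dlg4 and Homer2, had lower ratios than Grik3 (log2 ratio -0.58). The sequences are those of RefSeq on build GRCm38.p6, from 250 bases before to 50 after the start of transcription, in the sense of the gene. Capitals mark matches to 4 searched motifs on either strand, merged where they overlap: the GC box GGGCGG, the cAMP response element TGACGTCA, the TATA box TATAAA and the E-box CAGCTG. The window of Camk2b is chr11:6065699-6065998 (minus strand), that of Grik3 is chr4:125490446-125490745 (plus strand) and that of Nrgn is chr9:37552696-37552995 (minus strand).
Camk2b: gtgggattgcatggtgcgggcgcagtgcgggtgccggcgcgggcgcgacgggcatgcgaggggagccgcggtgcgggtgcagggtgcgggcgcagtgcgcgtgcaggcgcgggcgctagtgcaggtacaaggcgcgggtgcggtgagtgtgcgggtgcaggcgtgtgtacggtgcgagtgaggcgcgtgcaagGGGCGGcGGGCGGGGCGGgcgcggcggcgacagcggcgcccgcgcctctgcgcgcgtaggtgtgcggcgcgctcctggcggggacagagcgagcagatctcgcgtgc
Grik3: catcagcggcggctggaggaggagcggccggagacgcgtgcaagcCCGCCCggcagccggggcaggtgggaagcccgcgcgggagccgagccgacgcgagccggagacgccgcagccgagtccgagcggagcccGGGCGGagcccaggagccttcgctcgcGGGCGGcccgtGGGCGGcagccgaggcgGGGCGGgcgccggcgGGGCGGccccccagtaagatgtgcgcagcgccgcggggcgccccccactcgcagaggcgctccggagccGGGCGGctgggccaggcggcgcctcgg
Nrgn: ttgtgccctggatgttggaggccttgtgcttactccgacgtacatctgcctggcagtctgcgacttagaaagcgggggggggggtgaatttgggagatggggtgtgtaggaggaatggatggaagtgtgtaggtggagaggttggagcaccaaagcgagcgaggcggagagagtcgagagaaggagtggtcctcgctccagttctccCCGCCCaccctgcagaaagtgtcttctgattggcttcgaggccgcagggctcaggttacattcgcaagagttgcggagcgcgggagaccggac
The Camk2b window was 77.3% G or C and held 3 GC boxes, that of Grik3 was 82% G or C with 7, and that of Nrgn was 59.3% G or C with 1. None of the 3 windows held the other motifs. Of the 26 measured genes, 17 had 29 windows in the table. The GC box was in 12 of these 29 (41.4%) and in 35.7% of all 32851 windows, the E-box in 5 (17.2%) and in 16.3% of all, the TATA box in 3 (10.3%) and in 13.6% of all, and the cAMP response element in 0 and in 1.79% of all. Some genes had up to 4 windows, which can overlap. The array measured transcripts near their 3′ end, so that no signal was assigned to a promoter.

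Different probe sets of the same gene gave the only repeat measurement. The 33 genes had 71 probe sets, and 41 of these passed the floor on 1 array or both. In 11 genes 2 or more probe sets passed it on both. In 9 of the 11 the probe sets had the same sign. Over all genes of the array, 95% of such pairs differed by less than 0.74 in log2 ratio. For Camk2a a second probe set had signals of 122 in CD47 KO and 207 in WT (log2 ratio -0.77). For Dlg4 the second had 111 in CD47 KO and 186 in WT (log2 ratio -0.75), close to that of the first, and for Grin3a the second had 241 in CD47 KO and 360.0 in WT (log2 ratio -0.58). These 3 genes were therefore lower by each probe set that passed the floor on both arrays. A further probe set of Camk2a, at 64.3 in CD47 KO and 147 in WT, was at least 1.38-fold lower.

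Other genes had probe sets that differed in size. Homer2 had a second probe set with 179 in CD47 KO and 387 in WT, 2.16-fold lower, and Grm5 one with 139 in CD47 KO and 282 in WT, 2.04-fold lower. Both passed the 2-fold threshold where the brightest probe set of the gene did not. For Gria2 the log2 ratios were -0.46, -0.97 and -0.19, all below 0 but 0.78 apart. The second probe set of Gria4 had 159.7 in CD47 KO and 229 in WT, a log2 ratio of -0.52 where the brightest gave -0.06. The 2 probe sets of Gria1 agreed closely, at 0.21 and 0.24, and the second of Dlg1, with 861 in CD47 KO and 551 in WT, was 1.56-fold higher.

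In 2 genes the sign differed between probe sets that both arrays measured. Homer1 had log2 ratios of -0.04 and -0.14 by 2 probe sets, while a further one had signals of 279 in CD47 KO and 159 in WT (1.76-fold higher, log2 ratio 0.81). Gria3 had -0.24 and 0.04. For Grm7 a second probe set was above the floor in CD47 KO alone, at 126 in CD47 KO and 60.9 in WT, and was at least 1.18-fold higher, opposite to the brightest one; by the median over both, Grm7 had a log2 ratio of -0.36. Which transcript each probe set detects was not examined.

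**Figure D3:**
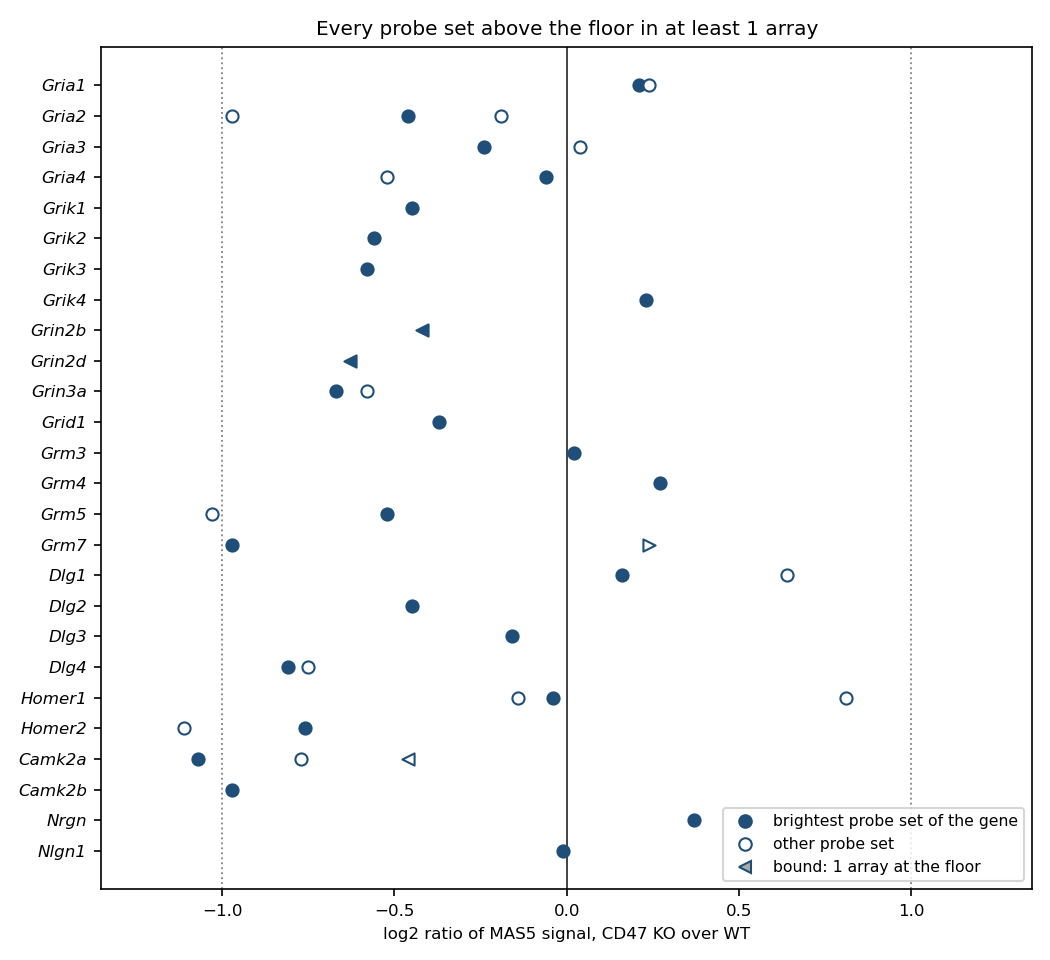
The horizontal axis gives log2 of CD47 KO over WT for the 41 probe sets that passed the floor, by gene; filled symbols are the brightest probe set of each gene, open symbols the others, triangles are bounds with 1 array at the floor, and dotted lines mark 2-fold. The symbols of Dlg4, Grin3a, Gria1 and Camk2a stay on 1 side of 0, whereas those of Homer1, Gria3 and Grm7 lie on both sides.

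Genes that work with these receptors were compared from further lists. The auxiliary subunits, synaptic organisers and pentraxins that bind glutamate receptors had 15 of 22 genes measured, with 12 below 0 and a median log2 ratio of -0.40. Of the 12, 2 passed the floor in WT alone, which fixed their direction. Over all measured genes 53.2% were below 0. Nptx1, a pentraxin that clusters AMPA receptors, had a signal of 91.1 in CD47 KO and 220.2 in WT and was lower by a factor of at least 2.07. A floor at the 60th percentile left 0 genes of the list over 2-fold lower and a median of -0.17. Cacng2, which encodes the AMPA receptor regulator stargazin, had 197 in CD47 KO and 319 in WT (1.62-fold lower). Neto1, an auxiliary protein of kainate receptors, had 184 in CD47 KO and 310.4 in WT (1.69-fold lower). The related and brighter Neto2 went the other way, with 616 in CD47 KO and 529 in WT (1.16-fold higher). Cacng4, known from oligodendrocyte precursors, had 695 in CD47 KO and 549.6 in WT (1.26-fold higher), the highest ratio of the list. Olfm1, its brightest member, had 1654 in CD47 KO and 1655 in WT.

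Of the calcium and kinase signalling genes below the receptors 26 of 33 were measured. Below 0 were 23 of the 26 (53.2% over all measured genes), with a median of -0.34. Of the 23, 1 passed the floor in WT alone, which fixed its direction. Plcb3, a phospholipase C that Gq-coupled receptors such as mGluR5 activate, had a signal of 364 in CD47 KO and 745 in WT (2.05-fold lower), and 0 genes of the list were over 2-fold lower once each array was centred on its median. The 3 listed genes of calcineurin, the phosphatase that opposes CaMKII, were lower by small amounts: Ppp3ca 1.22-fold, Ppp3cb 1.28-fold and Ppp3r1 1.30-fold. Fyn, a kinase that phosphorylates NMDA receptors and is abundant in oligodendrocytes, had 2896 in CD47 KO and 2183 in WT (1.33-fold higher), and the brightest member, Ppp1cc, had 9234 in CD47 KO and 9151 in WT.

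Other proteins of the postsynaptic density stayed closer to equal. Of 39 genes 29 were measured, and 22 of them were below 0 (53.2% over all measured genes). The median was -0.11. None was over 2-fold in either direction, where 0.818% of all genes were over 2-fold lower and 1.21% higher. Of the 22, 3 passed the floor in WT alone, which fixed their direction. Camkv, a kinase-like protein of synapses, had 157 in CD47 KO and 288 in WT (1.84-fold lower). Tjap1 was the highest at 573 in CD47 KO and 377 in WT (1.52-fold higher), and Lin7c, the brightest, had 3336 in CD47 KO and 3536 in WT. Receptor and neuroligin genes outside the set had a median of 0.02 over 6 measured, from Nlgn2 at -0.21 to Grin3b, at least 1.47-fold higher with 157 in CD47 KO and 33.8 in WT; the brightest, Camk2g, which encodes a widely expressed CaMKII subunit, had 1761 in CD47 KO and 1840.0 in WT. The α and β subunit genes thus had lower ratios than Camk2g, whose log2 ratio was -0.06.

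Genes for the release, uptake and metabolism of glutamate were lower in 6 of 13 measured, where 53.2% of all measured genes were lower. Slc17a6, a vesicular transporter of glutamatergic neurons in the thalamus, the hypothalamus and elsewhere, had 247 in CD47 KO and 601 in WT (2.43-fold lower). Slc17a7, a vesicular transporter known from the cortex, was under the floor at 39.2 in CD47 KO and 52.3 in WT. The astrocyte transporters Slc1a2, with 7584 in CD47 KO and 7323 in WT, and Slc1a3, with 7114 in CD47 KO and 6305 in WT, were 1.04-fold and 1.13-fold higher. Glutamine synthetase, Glul, had 25813 in CD47 KO and 27365 in WT. Slc1a1 was the highest at 497 in CD47 KO and 328 in WT (1.51-fold higher), and the median of the list was 0.05, or -0.02 with no floor.

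Cell type markers were compared to describe which cells the pools held. The share of all measured genes that were lower in CD47 KO, 53.2%, stands beside each count below. The 15 pan-neuronal genes had a median log2 ratio of -0.66, from Nefm at -1.32 to Tubb3 at 0.01. Below that median lay 6 of the 26 receptor and postsynaptic genes: Camk2a, Camk2b, Grm7, Dlg4, Homer2 and Grin3a. Grin3a, at -0.67, was only just below it. By the median over probe sets Grm7 was at -0.36, above the pan-neuronal median of -0.57 in that setting. Markers of striatal neurons were lower in 9 of 9, with a summed signal of 3602 in CD47 KO and 6654 in WT. Of these, 2 were bounds that passed the floor in WT alone, which fixed their direction. Markers of GABAergic neurons were lower in 8 of 9, with 4866 in CD47 KO and 8479.6 in WT. In these sums, signals under the floor were added as deposited, which lowers the CD47 KO sum where a gene passed in WT alone. Glutamatergic markers of cortex and hippocampus were mostly dim, and 7 of 12 were measured. Of these, 4 were bounds that passed the floor in WT alone, which fixed their direction. The summed signal was 1462 in CD47 KO and 2187 in WT. Rasgrf2, which is also in the calcium signalling list, made up 739 of it in CD47 KO and 1216 in WT. Only 3 of the markers were above the floor on both arrays. Rasgrf2 and Cux2 were lower, whereas Fezf2 was 1.86-fold higher, with 211 in CD47 KO and 114 in WT, the latter close to the floor. The median of the glutamatergic markers was -0.11 here, -0.69 and -0.28 when the 40th and 60th percentile served as the floor, and -0.70 with none. Hypothalamic markers were lower in 7 of 9 and differed widely. Avp made up most of their summed signal, with 22364 of 29263 in CD47 KO and 24982 of 36418 in WT. Pmch had 130.2 in CD47 KO and 894 in WT (6.86-fold lower), and Pomc had 1166 in CD47 KO and 379 in WT (3.07-fold higher). The Pomc value came from a probe set marked for cross-hybridisation. Without such probe sets 0 hypothalamic markers were over 2-fold higher, against 1 here. Of the retinal markers 3 were measured, all dim, and their median had no stable direction: it was -0.23 here, -0.08 and -0.04 when the 40th and 60th percentile served as the floor, and 0.01 with none.

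Glial markers were mostly higher in CD47 KO. Oligodendrocyte precursor markers had a summed signal of 46539 in CD47 KO and 44662 in WT (7 of 9 higher), mature oligodendrocyte markers 282002 in CD47 KO and 261281 in WT (10 of 11 higher), and astrocyte markers 170877 in CD47 KO and 158001 in WT (7 of 11 higher). Their median log2 ratios were small, at 0.21, 0.11 and 0.09. Bcas1 made up most of the precursor sum, with 30139 in CD47 KO and 29894 in WT. By quantile normalisation 4 of the 9 precursor markers were lower and the oligodendrocyte median was 0.04. Over all measured genes 53.2% were below 0. Microglial markers were higher in 11 of 13, with 83911 in CD47 KO and 42237 in WT. No marker was at a signal of 0 on either array, but some neuronal markers and 5 of the retinal ones were under the floor on both. The part that the amount of neuronal RNA, and of grey matter in the dissection, had in the lower receptor signals was not tested.

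**Figure D4:**
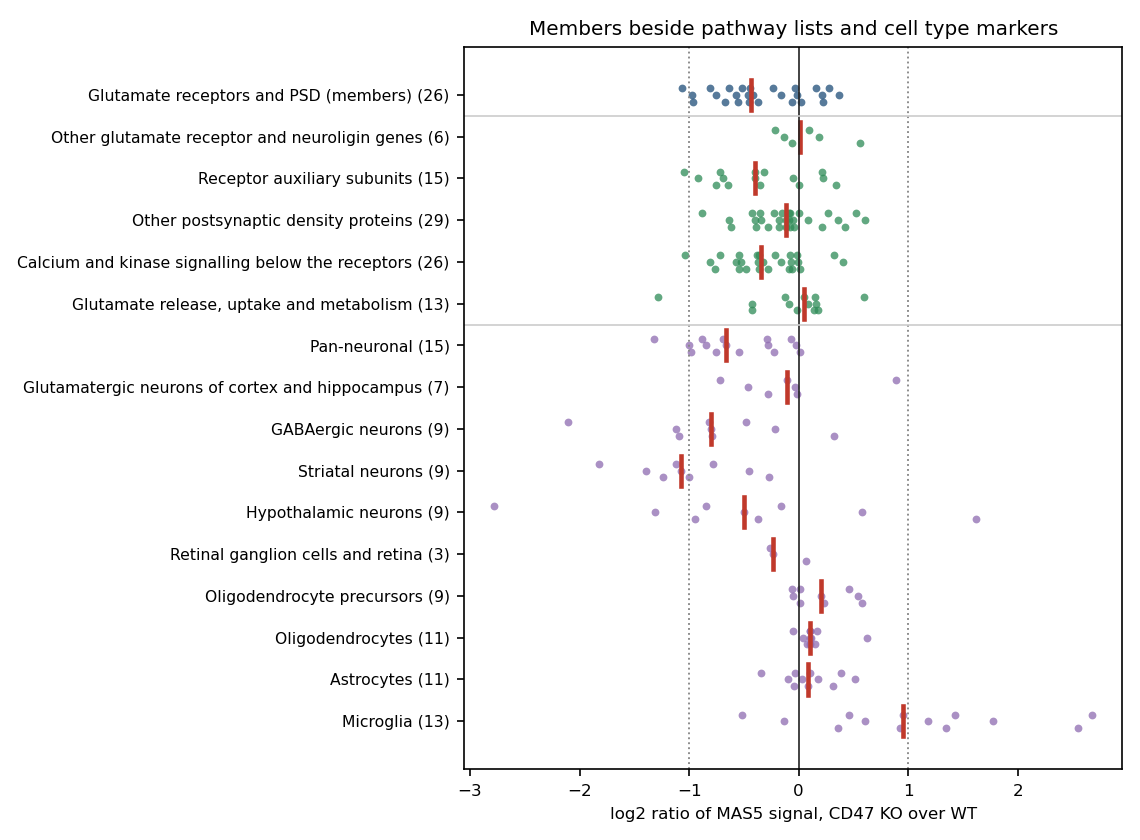
The horizontal axis gives log2 of CD47 KO over WT of the measured genes of each list (circles; number in brackets), with bounds plotted at their value and the median as a red bar; receptor and postsynaptic genes in blue, pathway lists in green, cell type markers in purple, and 2-fold as dotted lines. The median of the receptor and postsynaptic genes (-0.43) lies between that of the pan-neuronal markers (-0.66) and those of the glial lists (0.09 for astrocytes to 0.96 for microglia).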

How the data were processed

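The RNA of 1 pool per genotype, from optic nerve and optic tract, was turned into biotinylated cRNA with a 3′ IVT kit and run on Affymetrix GeneChip arrays of the mouse genome. The authors used Command Console for scanning and Expression Console for processing, and the submitters' processing notes name MAS5, without a version. The deposited tables give linear MAS5 signal intensity for each probe set, and both arrays had a trimmed mean of 500. MAS5 gives noisy values near background, so signals under the floor (106, the 50th percentile of both arrays) were set to it before CD47 KO was divided by WT on the log2 scale; where only 1 array passed the floor the ratio is a bound, written "at least".

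Of 45101 probe sets 64 were controls. Genes were named from the platform annotation: 34945 probe sets had 1 symbol, 932 several and 9160 none, and those with several or none were left out. The gene identifiers of all 33 genes had the same symbol in RefSeq. The brightest probe set, by mean log2 signal, stood for its gene. A difference of over 2-fold was counted, as in the study. The members and lists were chosen with earlier results of these data known. All 33 members found on the array were named. Of each pathway list, the genes with the highest and the lowest ratio, the brightest gene and those over 2-fold where 5 or fewer were named. Further genes (Cacng2, Neto1, Neto2, Ppp3ca, Ppp3cb, Ppp3r1, Slc17a7, Slc1a2, Slc1a3, Nefm, Tubb3, Rasgrf2, Cux2, Fezf2, Avp, Pmch, Pomc, Bcas1) were picked with their values in view. Values were computed with Python 3.11.15, numpy 2.4.6, pandas 2.3.3 and statsmodels 0.14.6, and the steps were tested on simulated data. Precision is limited by the number of arrays. The alternatives were floors at the 40th and 60th percentile, no floor, quantile normalisation, median centring, loess (span 0.3), removal of probe sets marked for cross-hybridisation, and the median over the probe sets of a gene.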

Additional observations from a re-analysis of the deposited data

How the results depend on the processing

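The count of receptor and postsynaptic genes over 2-fold lower, 1 of 26 here, was 2 of 29 with the floor at the 40th percentile (Grin2d besides Camk2a). With no floor it was 3 of 33 (Grin2a as well, from signals under the floor), where 7.94% of all genes were over 2-fold lower. It was 0 when the median of a gene's probe sets was used, and 7 at a threshold of 1.5-fold, which was chosen after the data had been seen. With no floor 1 gene, Grin2c, was over 2-fold higher, against 0 here. Over all genes 102 (0.818%) were over 2-fold lower, against 173 (1.24%) and 55 (0.507%) with the floor at the 40th and 60th percentile. With no floor 1445 of 18193 genes (7.94%) were over 2-fold lower. Over 2-fold higher were 151 genes here and 1287 with no floor. The count below 0 and the median kept their direction in each of the 8 other settings listed under the methods; by median centring 18 of the 26 were below 0, and over genes above the floor in both arrays alone, a choice made after the data had been seen, 18 of 24 were, with a median of -0.41. Of the 26 genes, 24 kept their sign in each of these settings that gave them a value. Nlgn1 changed sign by median centring and loess, and Homer1 by median centring. With the floor at the 60th percentile 5 of the 26 had no value. None of the 71 probe sets was marked for cross-hybridisation. No paired analysis was possible because each genotype had 1 array. Signals near the floor, such as those of Grik4, Nrgn and Grin2b, limit what their ratios can show.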
